A study of Mus musculus with 4 samples.

Results

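The Hist1h2bc-high progenitors are the cells of a sorted bone marrow progenitor population that held at least 3 transcripts of Hist1h2bc, a gene for histone H2B. They were chosen by their own counts of that gene in the deposited matrices, among the cells the authors kept, and they numbered 524 of 8883 cells (5.90%). The population is the LMPP (lymphoid-primed multipotent progenitor), an early cell of blood formation that can still give rise to lymphoid and myeloid cells. It was taken by flow sorting from the bone marrow of C57BL/6 mice and sequenced from 10x Genomics droplets on a NextSeq 500. The study follows RBPJ, the DNA-binding protein through which Notch receptors act on their target genes, in 4 libraries, 1 for each group. In the uninduced group the mice lacked RBPJ. In the 3-day and 6-day groups, mice that had lacked RBPJ were made to express it for 3 or 6 days by doxycycline, of which the labels give 2 mg/ml for an intraperitoneal injection and 1 mg/ml for the drinking water that followed. The control group always kept RBPJ. The labels give neither the promoter behind the inducible RBPJ, nor the number of mice in a library, nor whether uninduced and control mice also drank doxycycline. With 1 library per group, a difference between groups and a difference between libraries cannot be told apart.

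Histones are the proteins around which DNA is wound: core histones H2A, H2B, H3 and H4 form the spool, and linker histones of the H1 family bind where DNA enters and leaves it. Most histone genes stand in clusters and are used in S phase, when DNA is copied, and their transcripts end at a stem-loop, without the poly(A) tail that the capture primers of droplet sequencing bind. A smaller set, the replication-independent or variant histones, makes ordinary polyadenylated transcripts that are also used outside S phase, in resting and maturing cells. Several clustered genes can also make a polyadenylated form, and Hist1h2bc is one that is known to do so. Hes1, a transcriptional repressor, is a direct target of Notch and RBPJ.

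Hist1h2bc (ENSMUSG00000018102) lies on the plus strand of chr13:23684199-23692908 (GRCm38) in the large histone cluster, and its annotated transcript (GENCODE vM21) is 1156 bases long in 2 exons. No match to the histone stem-loop was found in that transcript. Its cluster neighbour Hist1h1c (ENSMUSG00000036181, linker histone H1.2), a single-exon gene at chr13:23738808-23740367 on the plus strand, had the largest log2 fold change among the called genes below. H1f0 (ENSMUSG00000096210), the replication-independent linker histone H1.0, is a single-exon gene at chr15:79028450-79030504 on the plus strand. The stem-loops of 3 clustered genes that were higher in the Hist1h2bc-high cells, and of Hist1h2ap, an H2A gene that was not called, are printed to show that they share the same hairpin. Capitals mark the stem-loop, and each line is read from the annotated transcript, 5′ to 3′.
Hist1h1c: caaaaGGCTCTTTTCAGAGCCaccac
Hist3h2a: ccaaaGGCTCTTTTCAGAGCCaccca
Hist3h2ba: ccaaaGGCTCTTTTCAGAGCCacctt
Hist1h2ap: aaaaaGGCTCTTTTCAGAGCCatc
The hairpin is identical in these 4 transcripts, and they differ in what follows it. The annotated transcript ran on for 840 bases after the stem-loop in Hist1h1c, 1643 bases in Hist3h2a and 169 bases in Hist3h2ba, against 3 bases in Hist1h2ap.

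The 100 bases before the start of Hist1h1c, H1f0, Hist3h2a and Hist3h2ba (RefSeq, GRCm38.p6, where they are named H1f2, H1f0, H2aw and H2bu2) are printed because these genes moved together. Capitals mark CCAAT, the letters bound by the NF-Y factor, or their reverse complement ATTGG. The windows are all on the plus strand, at chr13:23738707-23738806, chr15:79028112-79028211, chr11:58954585-58954684 and chr11:58948811-58948910 in the same order.
Hist1h1c: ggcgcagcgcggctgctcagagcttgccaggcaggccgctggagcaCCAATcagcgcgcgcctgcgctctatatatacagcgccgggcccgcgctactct
H1f0: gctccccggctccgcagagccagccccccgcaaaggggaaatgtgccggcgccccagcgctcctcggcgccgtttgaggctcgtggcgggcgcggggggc
Hist3h2a: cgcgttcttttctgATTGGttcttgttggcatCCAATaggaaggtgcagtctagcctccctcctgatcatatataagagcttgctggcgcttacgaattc
Hist3h2ba: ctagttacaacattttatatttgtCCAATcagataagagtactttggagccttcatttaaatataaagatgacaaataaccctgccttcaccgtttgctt
Hist1h1c and Hist3h2ba had 1 CCAAT in this window, Hist3h2a had 2 in opposite orientations, and H1f0 had none. Over windows of 300 bases, CCAAT on either strand was found in 12158 of 32544 promoters (37.4%) and in 59 of 71 histone genes with a promoter in the table (83.1%), out of 79 histone genes listed. TATATA, which Hist1h1c and Hist3h2a hold in the printed stretch, was found in 5.44% of all promoters and 23.9% of the histone genes. These are matches of letters and were tied to no measurement of binding.

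Hist1h2bc-high cells were found in all 4 libraries at similar shares. They made up 178 of 2769 uninduced cells (6.43%, 95% Clopper-Pearson interval 5.54 to 7.41), 81 of 1292 3-day cells (6.27%, 5.01 to 7.73), 119 of 2129 6-day cells (5.59%, 4.65 to 6.65) and 146 of 2693 control cells (5.42%, 4.60 to 6.34). The 4 intervals overlap. Intervals here and below cover counting error only. The share was 1.19 times as high in uninduced as in control cells (interval of the ratio 0.947 to 1.49), 0.975 times as high at 3 days as in uninduced cells (0.740 to 1.28), and 0.870 times as high at 6 days as in uninduced cells (0.684 to 1.10). After each cell had been thinned to 5000 unique molecular identifiers (UMIs, 1 per captured transcript), leaving out 797, 245, 466 and 454 shallower cells, the shares were 3.25% in uninduced, 2.67% in 3-day, 3.67% in 6-day and 3.75% in control cells. The uninduced-to-control ratio was then 0.865, so even its direction was not settled by these libraries.

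The gate stands on a falling slope of counts with no gap. Of all kept cells, 6943 had no Hist1h2bc UMI, 1128 had 1, 288 had 2, 261 had 3 or 4, 145 had 5 to 7 and 118 had 8 or more, with a highest count of 20. Cells just inside the gate, with 3 UMIs, numbered 65 in the uninduced, 31 in the 3-day, 36 in the 6-day and 40 in the control library. Cells just outside it, with 2 UMIs, numbered 89, 44, 74 and 81 in that order. The Hist1h2bc-high cells held 63.5% of all Hist1h2bc UMIs. As a description of the choice, Hist1h2bc stood at 712, 603, 720 and 798 CPM (counts per 1000000 UMIs of the same cells) in uninduced, 3-day, 6-day and control Hist1h2bc-high cells and at 26.0, 28.6, 25.2 and 22.0 CPM in the remaining cells. The Hist1h2bc-high cells were not the deeper ones: their median UMIs per cell were 6306.5, 6987, 6293 and 6947.5, against 6803, 7655, 7403.5 and 8016 in the remaining cells.

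Facts of the libraries bear on these counts. Of 8834 distinct barcodes of kept cells, 49 (0.555%) occurred in 2 libraries, and no barcode was that of a Hist1h2bc-high cell in both. Whether barcodes of Hist1h2bc-high cells recurred among the remaining cells of another library was not counted. Barcodes with 10 to 100 UMIs, a profile of RNA outside cells, held Hist1h2bc at 144, 101, 106 and 103 CPM in the uninduced, 3-day, 6-day and control libraries, against 69.4, 65.4, 63.5 and 60.1 CPM over all kept cells. Cells expressing mature blood cell genes, which lie outside the sorted population, numbered 84 in the 4 libraries, and 1 of them was Hist1h2bc-high. At least 1 Hist1h2bc UMI was found in 16.7% of those 84 cells (median 5595 UMIs per cell) and in 21.8% of all kept cells (median UMIs per cell 6573.5 in Hist1h2bc-high and 7401 in remaining cells). How much free RNA contributes to single Hist1h2bc UMIs was not tested. The targeted gene followed its labels in the induced libraries: Rbpj stood at 462 CPM at 3 days and 446 CPM at 6 days in the remaining cells, against 11.4 CPM in uninduced and 17.9 CPM in control cells.

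Hist1h2bc-high cells carried the progenitor genes of the sort. Cd34 stood between 408 and 508 CPM in them in the 4 libraries, Flt3, the cytokine receptor that marks lymphoid-primed cells, between 213 and 287 CPM, and Dntt, the terminal transferase of early lymphoid cells, between 904 and 1148 CPM. They were then compared with the remaining cells of their own library, on UMIs summed over each set of cells in each of the 4 libraries, with the library as a block (edgeR quasi-likelihood test, Benjamini-Hochberg adjusted over 10513 genes). Hist1h2bc itself was left out of the calls. The Hist1h2bc-high cells were higher in 712 genes (6.77% of those tested) and lower in 802 (7.63%). Without the uninduced library the counts were 405 and 491, and without the 6-day library 394 genes were higher. Of the 3 genes that mark the cells, the other 2 were both among the higher ones. The members and gene lists were chosen with earlier results of these data known. This is therefore a description of the cells and no independent support.

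Hist1h1c was the most raised gene outside the gate. It stood at 208 CPM in uninduced, 151 CPM in 3-day, 160 CPM in 6-day and 184 CPM in control Hist1h2bc-high cells, against 35.9, 39.9, 34.6 and 33.5 CPM in the remaining cells in that order. All 4 values of the Hist1h2bc-high cells lie far above all 4 of the remaining cells. The folds were 5.79 (95% interval 5.02 to 6.67), 3.79 (3.02 to 4.71), 4.62 (3.84 to 5.53) and 5.49 (4.69 to 6.4), and the fitted log2 fold change was 2.35 ± 0.087 (SE, 4 libraries, adjusted p = 2.98e-23). H1f0 stood at 125, 103, 102 and 127 CPM in uninduced, 3-day, 6-day and control Hist1h2bc-high cells, against 48.7, 45.3, 45.0 and 61.9 CPM in the remaining cells. It too was higher in all 4 libraries, by 2.06-fold to 2.58-fold (log2 1.23 ± 0.0855, adjusted p = 4.14e-14). RNA outside cells held Hist1h1c at 38.7, 72.8, 59.9 and 43.6 CPM in the 4 libraries, below its level in the Hist1h2bc-high cells of each.

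**Figure D1:**
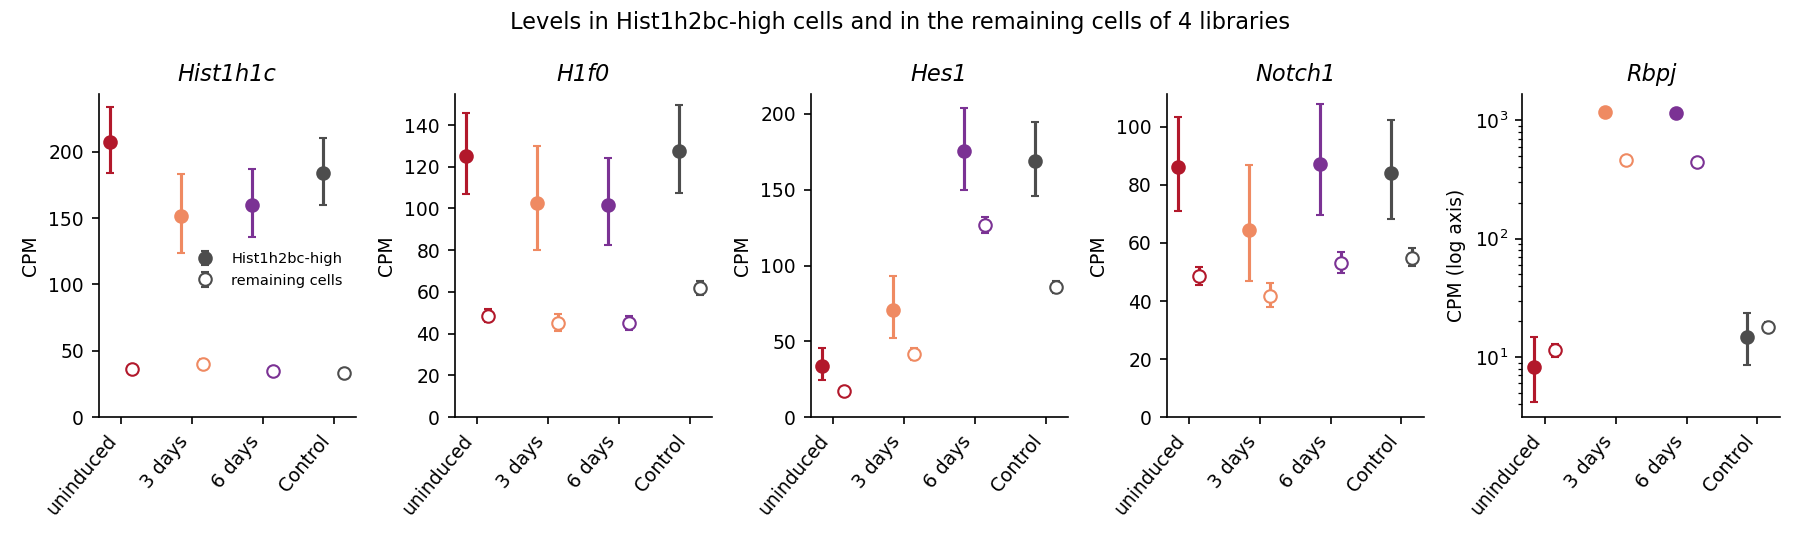
CPM of Hist1h1c, H1f0, Hes1, Notch1 and Rbpj (Rbpj on a log axis) in Hist1h2bc-high cells (filled) and remaining cells (open) of the 4 libraries, with 95% Poisson intervals. Hist1h1c, H1f0, Hes1 and Notch1 are higher in the Hist1h2bc-high cells of all 4 libraries, while Rbpj is higher in them in the 2 induced libraries, at 1182 and 1148 CPM against 462 and 446 CPM.

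Histone genes as a group divided by kind. Of 50 clustered histone genes tested, 9 were higher and none was lower, with a median log2 fold change of 0.15, against 0.01 over all genes tested. By the same test 6.77% of all genes were higher. Hist3h2a, an H2A gene of a small cluster on chromosome 11 (chr11:58954685-58956830), followed Hist1h1c in size. It stood at 127, 106, 116 and 97.9 CPM in uninduced, 3-day, 6-day and control Hist1h2bc-high cells, against 45.0, 46.3, 39.9 and 34.9 CPM in the remaining cells (log2 1.48 ± 0.0893, adjusted p = 4.55e-16). Its neighbour Hist3h2ba, an H2B gene at chr11:58948920-58949533, stood at 58.9, 32.3, 46.7 and 29.5 CPM against 17.9, 15.5, 14.5 and 16.2 CPM (log2 1.43 ± 0.151). Hist1h4i, a histone H4 gene, was higher by 0.84 on the log2 scale, with 84.0 to 125 CPM in the Hist1h2bc-high cells against 56.6 to 66.2 CPM in the remaining cells. The other 5 called, Hist1h2be, Hist1h3e, Hist2h2be, Hist1h2bg and Hist1h4h, lay between 0.64 and 0.94 on the log2 scale, and Hist1h2be lost its call without the uninduced (0.85) or the 6-day library (0.79).

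Reads shared between near-identical genes limit some of these calls. Of the 31-base words in the last 500 bases of the transcripts, Hist1h1c and Hist3h2a shared none with another gene, and Hist1h2bc shared 2.21%. Hist3h2ba shared 40.2% of its words, including 30 with Hist1h2bc itself, and Hist1h2bg shared 57.0%, including 221 with Hist1h2bc. Hist1h3e and Hist1h4h shared 87.0% and 50%, with other H3 and H4 genes. The calls of these 4 genes are therefore uncertain, as are the counts that include them. Hist1h1e and Hist1h2ap, with 99.2% and 93.4% shared, are uncertain in the same way, and neither was called.

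The clustered genes that were higher were mostly those with a transcript annotated beyond the stem-loop. Among 18 tested genes with a stem-loop and a longer transcript, 6 were higher and the median log2 fold change was 0.26. Among 16 genes without a matched stem-loop, 2 were higher, with a median of 0.14. Among 13 genes whose stem-loop lies within 50 bases of the annotated end, 1 was higher (Hist1h4h), with a median of -0.07. No test was made between these classes, which do not cover all 50 clustered genes tested. Hist3h2ba, Hist1h2bg and Hist1h3e, in the class with 6 higher, and Hist1h4h have the uncertain calls named above. Levels differed too: Hist1h1c and Hist3h2a had mean levels of 106 and 76.6 CPM, against 1.57 CPM for Hist1h2bf, whose stem-loop lies near the end. Genes with few counts are harder to call. A long annotated transcript did not go with a call in each case: Hist1h1e, with 1153 bases after its stem-loop, and Hist1h4d, with 770, were not called.

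Of 11 variant and replication-independent histone genes tested, 7 were higher and 2 were lower, with a median log2 fold change of 0.26. Cenpa, the histone H3 of centromeres, which is made in G2, stood at 442, 401, 383 and 346 CPM in uninduced, 3-day, 6-day and control Hist1h2bc-high cells, against 141, 145, 158 and 167 CPM in the remaining cells (log2 1.39 ± 0.0652, adjusted p = 1.03e-19). H1fx, linker histone H1.10, was higher by 0.76 and H3f3b, one of the genes for the replacement histone H3.3, by 0.36 on the log2 scale. H3f3b stood at 3846 CPM in uninduced Hist1h2bc-high cells, against 2935.5 CPM in the remaining cells of that library, and at 2862 against 2516 CPM in the control library. H2afj and H2afy, the genes of H2A.J and macroH2A1, were lower by 0.46 and 0.16 on the log2 scale, in all 4 libraries. H2afz, H2afv and H2afx were higher in the fit by 0.11, 0.28 and 0.26, but in the control library they stood at 0.910, 0.926 and 0.704 times their level in the remaining cells. H2afz and H2afx lost their calls when the uninduced (0.11 and 0.11), 3-day (0.051 and 0.23) or 6-day library (0.10 and 0.20) was left out.

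**Figure D2:**
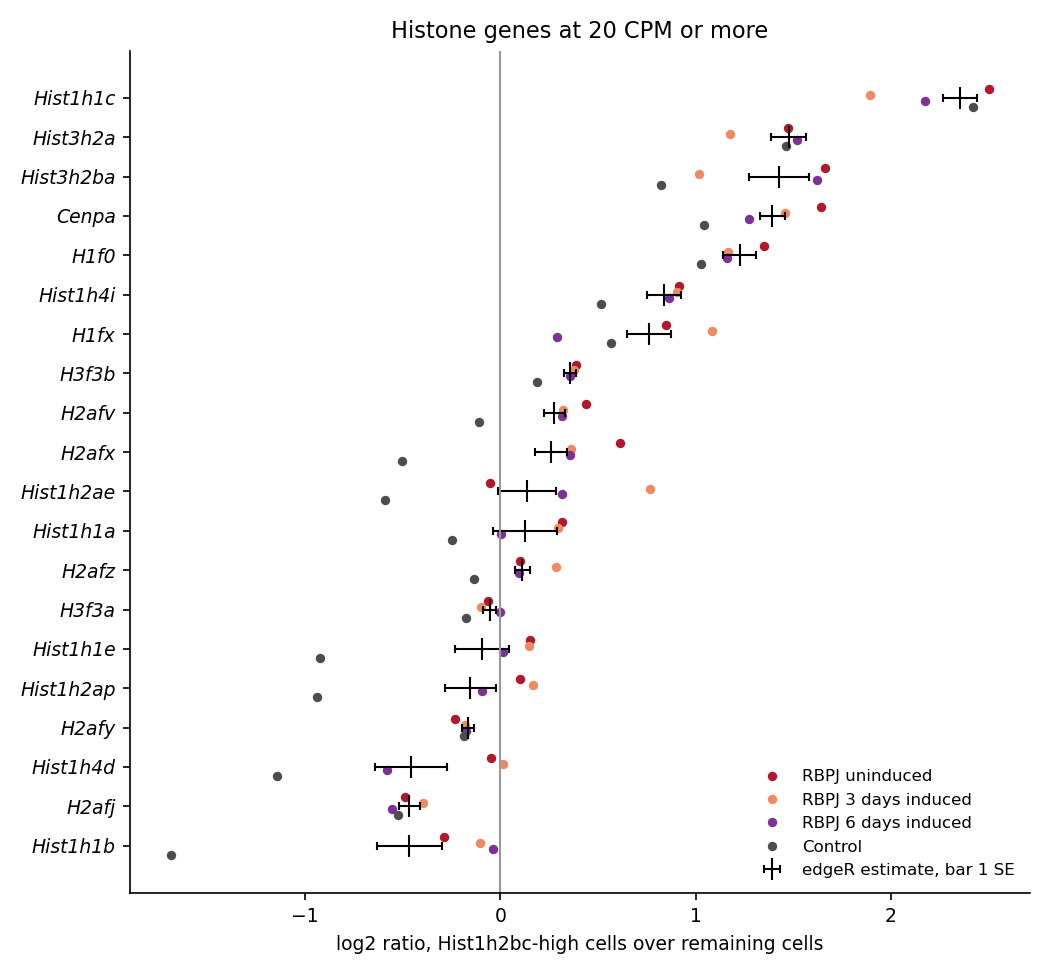
Log2 ratio of Hist1h2bc-high over remaining cells for the clustered and variant histone genes at 20 CPM or more, 1 dot per library, with the edgeR estimate and ±1 SE. Hist1h1c lies highest at 2.35, Hist3h2a, Hist3h2ba, Cenpa and H1f0 lie between 1.23 and 1.48, and the control library lies below the other 3 for Hist1h1b, Hist1h2ap and Hist1h1e.

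Control Hist1h2bc-high cells had low levels of several clustered genes that did not pass the test. Hist1h1b, the gene of linker histone H1.5, stood at 12.1 CPM in control Hist1h2bc-high cells, against 41.2 CPM in the remaining control cells (0.294-fold), while the ratios were 0.813, 0.928 and 0.976 in the uninduced, 3-day and 6-day libraries. Hist1h2ap had a ratio of 0.514 in the control library, against 1.07, 1.13 and 0.936 in the other 3. These differences between libraries were not tested, and without the 6-day library Hist1h1b was called lower (-0.64). Of 15 genes for the machinery that makes histone mRNA, Slbp alone was lower and Srrt alone higher. These shares are near the 7.63% lower and 6.77% higher of all genes tested. Srrt was not called when the uninduced (0.26), 6-day (0.32) or control library (0.25) was left out. Slbp encodes the protein that binds the stem-loop and is present mainly in S phase. It stood at 74.8, 120, 75.8 and 84.9 CPM in uninduced, 3-day, 6-day and control Hist1h2bc-high cells, against 155, 169, 148 and 166 CPM in the remaining cells (log2 -0.86 ± 0.0839, adjusted p = 3.68e-10).

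S phase genes were low in the Hist1h2bc-high cells. Of 46 S phase genes tested, 45 were lower and none was higher, with a median log2 fold change of -1.01. Summed over the list, S phase genes stood at 1345, 1877, 1587 and 1543 CPM in uninduced, 3-day, 6-day and control Hist1h2bc-high cells, against 3046, 3132, 2858 and 3179 CPM in the remaining cells, or 0.442 to 0.599 times as high. Ung, a uracil glycosylase used at the replication fork, stood at 6.04, 17.6, 12.5 and 19.9 CPM against 70.8, 63.4, 55.2 and 63.8 CPM (log2 -2.22 ± 0.175, adjusted p = 9.83e-13). Rrm2, a subunit of ribonucleotide reductase, stood at 21.9, 35.2, 20.8 and 4.33 CPM against 72.0, 78.2, 64.8 and 71.8 CPM. Lig1, the DNA ligase of replication, and Ccne2, cyclin E2, were lower by 1.70 and 2.10 on the log2 scale.

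Genes that carry cells into S phase were lower as well. Of 14 cyclin D, CDK and MYC genes tested, 6 were lower and none was higher. E2f1, the transcription factor that turns on S phase genes, stood at 6.04, 8.81, 8.31 and 9.53 CPM in uninduced, 3-day, 6-day and control Hist1h2bc-high cells, against 42.0, 34.7, 37.2 and 44.2 CPM in the remaining cells (log2 -2.30 ± 0.192, adjusted p = 5.66e-12). Cyclin D1 (Ccnd1), Cdk2 and Myc were lower by 1.05, 0.84 and 0.36 on the log2 scale, in all 4 libraries. Of 25 cell cycle exit and CDK inhibitor genes tested, 7 were higher and none was lower. Ccng2, an atypical cyclin of resting cells, was higher by 0.59, Tob1, an antiproliferative adaptor, by 0.60, and Mxd4, a repressor that competes with Myc for its partner Max, by 0.55, with the call of Tob1 lost without the uninduced library (0.49).

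G2 and M phase genes were higher in Hist1h2bc-high cells of 3 libraries, and their summed level was lower in the control library. Of 53 tested, 20 were higher and 2 (Cbx5 and Aurkb) were lower, with a median of 0.25. The summed list stood at 8043, 8236, 7283 and 5731 CPM in uninduced, 3-day, 6-day and control Hist1h2bc-high cells, against 5367, 5812, 5615 and 6107 CPM in the remaining cells. The ratios were 1.5 (1.47 to 1.53), 1.42 (1.38 to 1.46), 1.30 (1.27 to 1.33) and 0.938 (0.915 to 0.962). Single genes of late G2 and mitosis were nevertheless higher in all 4 libraries. Ccnb2, cyclin B2, stood at 233, 304, 258 and 243 CPM against 74.3, 89.4, 84.2 and 95.7 CPM (log2 1.61 ± 0.0671, adjusted p = 1.96e-21), Psrc1, a spindle protein, was higher by 1.22 and Cdc25c, the phosphatase that starts mitosis, by 1.14. Cdkn3 and Knstrn, a phosphatase and a kinetochore protein of mitotic cells, were both higher by 1.26. Aurkb, the kinase of chromosome segregation, stood at 46.1, 48.4, 38.4 and 23.4 CPM against 44.4, 57.2, 51.6 and 58.3 CPM, and its call was lost without the 3-day (-0.46), 6-day (-0.42) or control library (-0.15).

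Ranking cells by the UMIs of each list after thinning to 5000 UMIs showed the same place in the cycle. The Hist1h2bc-high cells of that depth numbered 114 in the uninduced, 62 in the 3-day, 94 in the 6-day and 117 in the control library. In the lowest S quintile of each library, Hist1h2bc-high cells made up 14.0%, 15.3%, 12% and 13.2% of cells. In the highest S quintile they made up 0 of 395 uninduced cells, with an upper Clopper-Pearson bound of 0.930%, and 1.90%, 1.20% and 0.223% of 3-day, 6-day and control cells. In the highest quintile of the G2 and M list they made up 12.7%, 10.5%, 8.41% and 3.79%, against 3.55%, 2.39%, 3.92% and 3.8% in the lowest. The highest quintile thus held a larger share than the lowest in the uninduced, 3-day and 6-day libraries. In the control library the share was 7.14% in the fourth quintile and back at the level of the lowest in the highest.

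**Figure D3:**
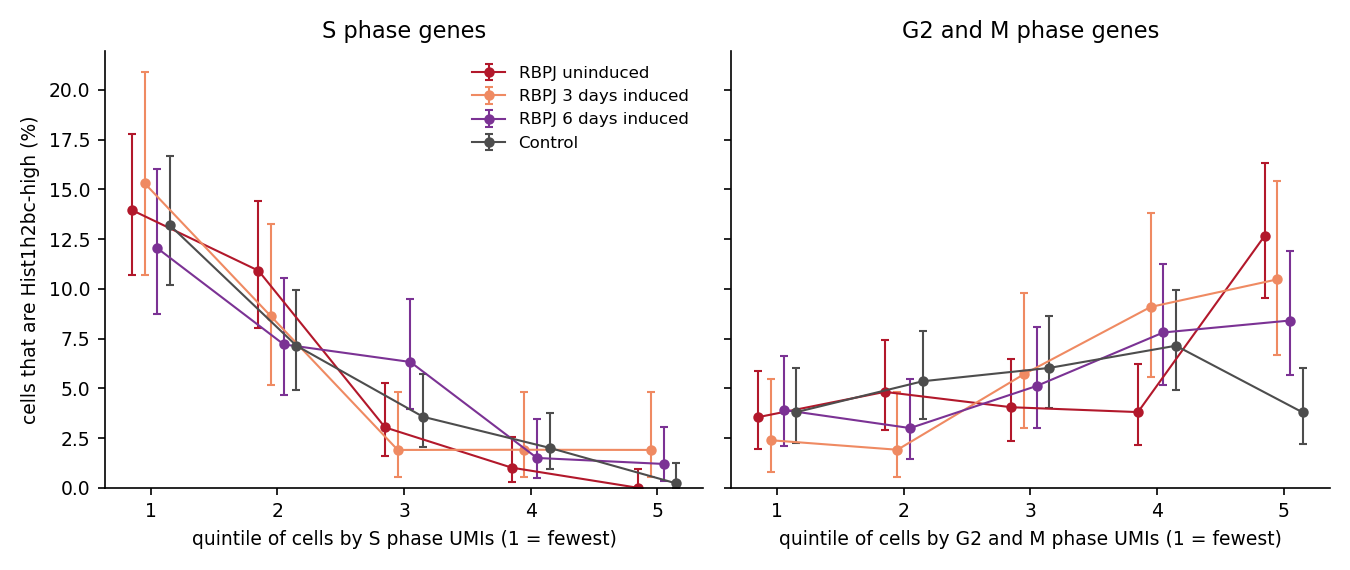
Percent of cells that are Hist1h2bc-high in each quintile of S phase UMIs and of G2 and M phase UMIs, per library, after thinning to 5000 UMIs per cell, with 95% Clopper-Pearson intervals. The share is lower in the highest S quintile (0, 1.90%, 1.20% and 0.223%) than in the lowest in all 4 libraries, and in the highest G2 and M quintile it stands at 12.7%, 10.5%, 8.41% and 3.79%.

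The Hist1h2bc-high cells were spread over several places of the cycle. The highest G2 and M quintile held 43.9%, 35.5%, 29.8% and 14.5% of the uninduced, 3-day, 6-day and control Hist1h2bc-high cells, against 18.6%, 19.1%, 19.4% and 20.3% of the remaining cells. Cells at or below the median of their library in both lists, the least cycling ones, made up 35.1%, 17.7%, 30.9% and 38.5% of Hist1h2bc-high cells, against 31.3%, 31.9%, 32.2% and 31.9% of the remaining cells. Cells in neither place nor in the highest S quintile made up 21.1%, 41.9%, 37.2% and 46.2% of Hist1h2bc-high cells, the largest class in the 3-day, 6-day and control libraries, against 30.1%, 30.3%, 29.1% and 27.8% of the remaining cells. The share in G2 and M was also read by the Hist1h2bc count before thinning. Among cells with 3 to 7 Hist1h2bc UMIs, 47 of 97 uninduced (48.5%), 20 of 52 3-day (38.5%), 25 of 74 6-day (33.8%) and 16 of 82 control cells (19.5%) lay in the highest G2 and M quintile. Among cells with 8 or more, 3 of 17, 2 of 10, 3 of 20 and 1 of 35 did. These counts are small, and the difference from cells with 3 to 7 UMIs was not tested.

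Levels by Hist1h2bc count, over all libraries, separated the linker histones from the mitotic genes. Hist1h1c stood at 30.8, 48.9, 76.0, 126, 205 and 294 CPM in cells with 0, 1, 2, 3 or 4, 5 to 7 and 8 or more Hist1h2bc UMIs, and so was higher at each step of the pooled values. H1f0 stood at 46.5, 71.7, 77.8, 113, 104 and 143 CPM over the same steps. The pooled G2 and M list peaked below the gate, at 5090, 8127, 9494, 7967, 7551 and 4953 CPM. In the uninduced library it was highest inside the gate, at 8700 CPM at 3 or 4 UMIs against 8159 CPM at 2. The pooled S list went down throughout, at 3146, 2805, 2227, 1713, 1432 and 1246 CPM. Over all libraries, cells with 8 or more Hist1h2bc UMIs thus had the highest Hist1h1c and H1f0, the lowest S list, and a G2 and M list near that of cells with no Hist1h2bc UMI. Single libraries departed from this. At 6 days H1f0 stood at 100 CPM in these cells and higher at 5 to 7 UMIs. The 6-day S list stood at 1251 CPM in them and at 1226 CPM at 5 to 7 UMIs. Their G2 and M list stood at 5011, 6078, 5530 and 4299 CPM in the uninduced, 3-day, 6-day and control libraries. In cells with no Hist1h2bc UMI it stood at 4894, 4779, 5062 and 5417 CPM in that order. These steps are a description, since the same counts chose the cells. The counts were not thinned, so the steps can differ in UMIs per cell. How depth bears on these levels was not tested.

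**Figure D4:**
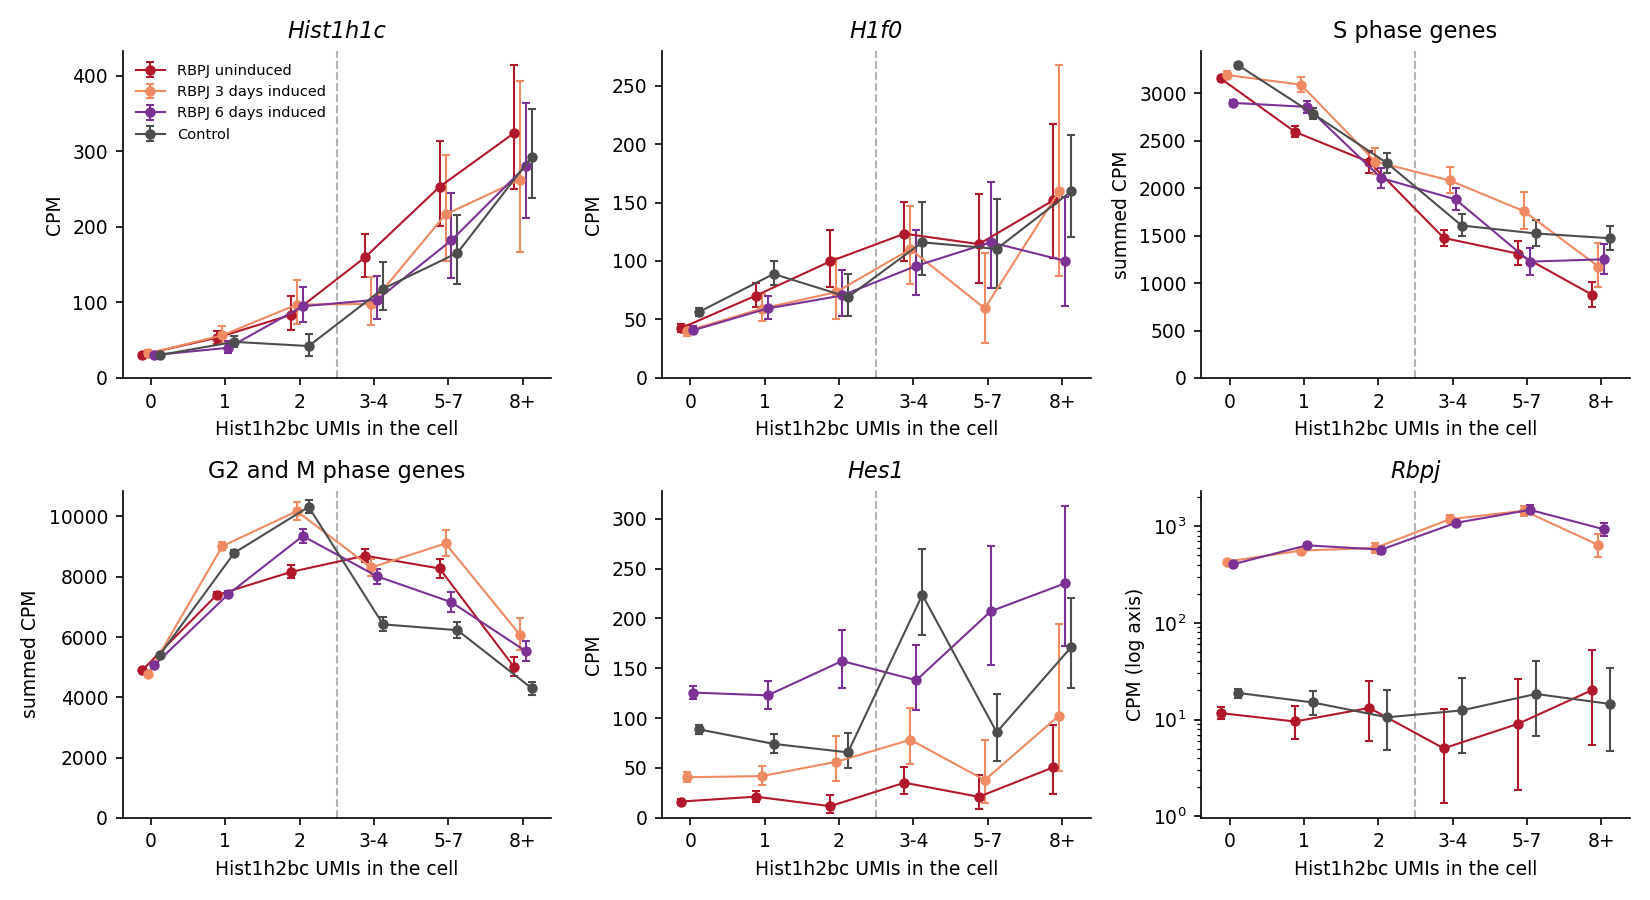
CPM of Hist1h1c, H1f0, Hes1, Rbpj, and the summed S and G2 and M lists by the number of Hist1h2bc UMIs in a cell (0, 1, 2, 3 to 4, 5 to 7, 8 or more), per library, with the gate as a dashed line. Over all libraries, Hist1h1c climbs to 294 CPM at 8 or more UMIs and the G2 and M list peaks at 9494 CPM at 2 UMIs. In the uninduced library that list peaks at 3 to 4 UMIs.

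Hes1 was higher in Hist1h2bc-high cells of all 4 libraries, including the one that lacked RBPJ. It stood at 34.0 CPM in uninduced, 70.5 CPM in 3-day, 176 CPM in 6-day and 169 CPM in control Hist1h2bc-high cells, against 16.9, 41.6, 127 and 85.6 CPM in the remaining cells. The folds were 2.01 (1.44 to 2.75), 1.69 (1.23 to 2.29), 1.39 (1.18 to 1.62) and 1.97 (1.69 to 2.29). The fitted log2 fold change was 0.80 ± 0.0937 (adjusted p = 2.90e-08). The 45, 48, 169 and 195 Hes1 UMIs came from 22, 20, 45 and 55 Hist1h2bc-high cells in that order. After thinning, 10.5%, 17.7%, 31.9% and 29.9% of Hist1h2bc-high cells held Hes1, against 6.03%, 8.93%, 25.6% and 17.5% of the remaining cells. The intervals of these shares overlap in all but the control library. The order of the groups was the same in both sets of cells only in part: uninduced was lowest and 3 days next in both, and 6 days and control lay within each other's intervals in Hist1h2bc-high cells. Notch1, the receptor upstream, stood at 86.1, 64.6, 87.2 and 84.0 CPM in uninduced, 3-day, 6-day and control Hist1h2bc-high cells, against 48.7, 41.8, 53.1 and 54.9 CPM (log2 0.73 ± 0.0931, adjusted p = 1.57e-07). Of 12 Notch target genes tested, Ptcra, Hes1 and Notch1 were higher and Myc was lower. Of 26 Notch pathway components tested, Notch1 and Rbpj were higher and none was lower, a share near the 6.77% of all genes.

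Rbpj itself was higher in Hist1h2bc-high cells where it had been induced. It stood at 8.31 CPM in uninduced, 1182 CPM in 3-day, 1148 CPM in 6-day and 14.7 CPM in control Hist1h2bc-high cells, against 11.4, 462, 446 and 17.9 CPM in the remaining cells. The folds were 0.728 (0.358 to 1.33) and 0.821 (0.473 to 1.33) in uninduced and control cells, whose intervals include 1, and 2.56 (2.37 to 2.76) and 2.57 (2.41 to 2.74) at 3 and 6 days. The fit over the 4 libraries gave a log2 fold change of 1.22 ± 0.0986 (adjusted p = 2.26e-12), to which 2 libraries contribute a rise, and the DESeq2 alternative gave 0.60, which did not pass the threshold. RNA outside cells held 291 and 285 CPM of Rbpj at 3 and 6 days. By Hist1h2bc count, Rbpj was highest at 5 to 7 UMIs, at 1444 CPM at 3 days and 1475 CPM at 6 days, and stood at 639 and 926 CPM at 8 or more UMIs. Of Rbpj's 31-base words near the transcript ends, 24.5% also occur in another gene, chiefly the pseudogene Rbpj-ps3.

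These differences were read again within places of the cycle. Among the least cycling cells, Hist1h1c was 8.96, 6.36, 4.35 and 10.2 times as high in uninduced, 3-day, 6-day and control Hist1h2bc-high cells as in the remaining cells of the same place, and in the highest G2 and M quintile 1.95, 1.98, 2.37 and 1.59 times as high, the last with an interval of 0.960 to 2.5. H1f0 was 2.38, 8.68, 1.61 (0.880 to 2.74) and 2.66 times as high among the least cycling cells, and in the highest G2 and M quintile 0.951 (0.692 to 1.28), 1.59 (1.06 to 2.31), 1.78 (1.25 to 2.48) and 0.958 (0.596 to 1.46) times as high. Hes1 did not keep 1 direction. Among the least cycling cells it was 2.74 and 3.81 times as high in uninduced and 3-day cells. There it was 0.494 times as high (0.300 to 0.770) in 6-day cells and 1.31 times as high (0.988 to 1.72) in control cells. In the highest G2 and M quintile Hes1 was 0.695 times as high (0.290 to 1.44) in uninduced cells, from 8 UMIs in 50 Hist1h2bc-high cells. The ratios there were 1.71 (0.910 to 3.00) in 3-day, 1.25 (0.889 to 1.71) in 6-day and 1.85 (1.13 to 2.88) in control cells. Rbpj was higher in each place of the induced libraries, by 2.96-fold at 3 days and 4.43-fold at 6 days among the least cycling cells and by 2.22-fold and 1.55-fold in the highest G2 and M quintile. The counts behind these values are small, with 11 to 45 Hist1h2bc-high cells per library among the least cycling and 17 to 50 in the highest G2 and M quintile.

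A further comparison was chosen after seeing the data. It took only the Hist1h2bc-high cells deep enough for thinning. They numbered 114 in the uninduced, 62 in the 3-day, 94 in the 6-day and 117 in the control library. Each was set against remaining cells of its library with a similar rank of S and of G2 and M UMIs. Median S UMIs per cell were 6 in these Hist1h2bc-high cells of all 4 libraries and 6 to 6.5 in the matched cells, against 13 to 15 in all remaining cells. Median G2 and M UMIs were 32, 37.5, 25.5 and 16 in uninduced, 3-day, 6-day and control Hist1h2bc-high cells and 42.5, 44.5, 27.5 and 13 in the matched ones, so the match was close for S and looser for G2 and M. Of 6881 genes tested, 44 (0.639%) were then higher and 48 (0.698%) lower, and 42 of the 44 had also been higher against all remaining cells. The matched cells were fewer than all remaining cells, and the shallower Hist1h2bc-high cells were left out. This count therefore comes from a smaller sample on both sides as well as from the matching.

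Histone genes and Hes1 were among the genes that still passed. Hist1h1c was higher by 1.52 ± 0.125 (adjusted p = 7.79e-13), Hist3h2a by 1.07 ± 0.137 (adjusted p = 3.16e-07), Hes1 by 0.86 ± 0.147 (adjusted p = 0.000116), H1f0 by 0.78 ± 0.136 (adjusted p = 0.000182) and Rbpj by 0.60 ± 0.0871 (adjusted p = 5.46e-06) on the log2 scale. Hist1h4i, H3f3b, Ccnb2, Cenpa, Dntt, Klf2, Tnf, Ptms and Ifi27l2a also passed, with log2 fold changes between 0.22 and 0.80, as did Ccr9 at 2.46, from few cells. Among the 48 lower genes, 9 were of the mature neutrophil and monocyte list. Notch1 did not, at 0.41 (adjusted p = 0.166), nor did Hist3h2ba, at 0.71 (adjusted p = 0.0911). Of the S list 0 of 39 genes and of the G2 and M list 2 of 51 were higher, and the matching used both lists. Within the highest G2 and M quintile alone, 39 of 8052 genes (0.484%) were higher and 40 (0.497%) lower, with Hist1h1c higher by 1.02, Rbpj by 0.86 and Hist3h2a by 0.78, while Hes1 at 0.44 and H1f0 at 0.34 did not pass. Among cells at or below the median of both lists, 91 of 7400 genes (1.23%) were higher and 94 (1.27%) lower, with Hist1h1c higher by 2.89, Rbpj by 1.65 and H1f0 by 1.43, while Hes1 stood at 0.23 (adjusted p = 0.687).

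**Figure D5:**
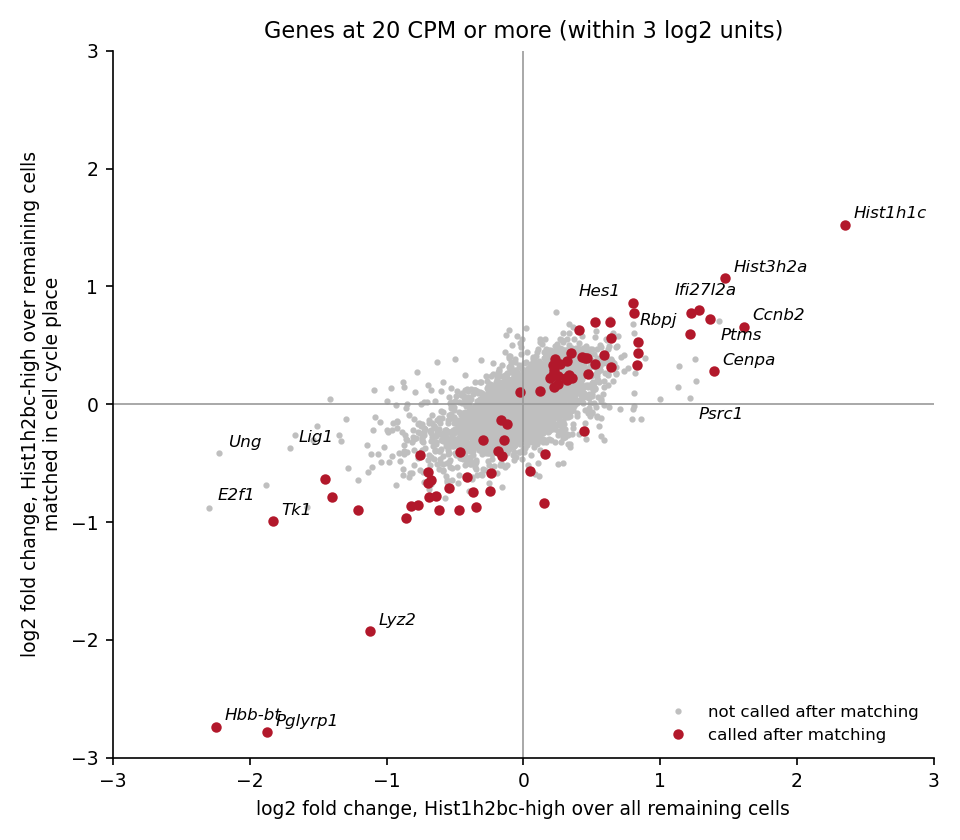
Log2 fold change of Hist1h2bc-high cells against remaining cells matched in cell cycle place (vertical) and against all remaining cells (horizontal), 1 dot per gene for 4813 genes, with 6 more outside the axes. Hist1h1c (1.52 and 2.35), Hist3h2a (1.07 and 1.48), Hes1 (0.86 and 0.80) and H1f0 (0.78 and 1.23) are high on both axes.

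Ptms and Ifi27l2a were raised genes outside the histone and cell cycle lists. Ptms, parathymosin, a small acidic protein that binds linker histones, was higher by 1.36 ± 0.0841 on the log2 scale, with 125, 86.6, 134 and 152 CPM in uninduced, 3-day, 6-day and control Hist1h2bc-high cells against 47.5, 42.4, 52.0 and 57.5 CPM in the remaining cells. Ifi27l2a, a small interferon-inducible protein of mitochondria, stood at 397, 343, 526 and 276 CPM against 154, 167, 217 and 113 CPM (log2 1.28 ± 0.0577, adjusted p = 2.63e-20). Both were higher in all 4 libraries. Of 26 interferon response genes tested, 5 were higher and none was lower, and the other 4 called lay between 0.28 and 0.59 on the log2 scale. Isg15, a standard reporter of interferon, was not called, at 66.5, 41.1, 38.4 and 24.3 CPM against 44.8, 53.5, 35.8 and 32.3 CPM.

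Lymphoid priming genes included called genes in both directions. Of 19 tested, 5 were higher and 2 lower, against 6.77% higher and 7.63% lower of all genes tested. Dntt stood at 904, 1148, 1121 and 1108 CPM in uninduced, 3-day, 6-day and control Hist1h2bc-high cells, against 651, 808, 826 and 752 CPM in the remaining cells (log2 0.52 ± 0.0400, adjusted p = 4.86e-13), and Flt3 and Cd27 were higher by 0.27 and 0.34. Ccr9, the receptor that guides progenitors to the thymus, stood at 28.7, 22.0, 32.2 and 25.1 CPM against 11.8, 9.03, 17.3 and 11.5 CPM (log2 1.16 ± 0.167, adjusted p = 2.30e-06). Its 38, 15 and 31 UMIs in the uninduced, 3-day and 6-day libraries came from 10, 9 and 12 Hist1h2bc-high cells. Ly6d, which marks lymphoid progenitors turning to the B lineage, was lower, at 9.06, 5.87, 16.6 and 3.47 CPM against 27.2, 12.6, 29.2 and 12.9 CPM (log2 -1.26 ± 0.220, adjusted p = 6.02e-05). Tcf3, the gene of the E2A proteins, was lower by 0.36, and not called without the 6-day library (-0.28).

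Markers of committed lineages were few. The counts that follow stand beside 6.77% higher and 7.63% lower of all genes tested. Of 7 T lineage genes tested, 3 were higher (Ptcra, Thy1 and Cd7), at or below 25.7 CPM in the Hist1h2bc-high cells of each library. Ptcra, the pre-T cell receptor chain, was higher in 3 libraries and stood at 0.866 CPM in control Hist1h2bc-high cells, against 3.8 CPM in the remaining control cells. Without the 6-day library Ptcra (0.95) and Cd7 (0.86) were not called, without the uninduced library Cd7 (0.41) was not, and Thy1 was not called in any set of 3 libraries (1.25 to 1.44). Of 11 B lineage genes, Ly6d alone was called. The 16 myeloid progenitor genes tested held 2 higher, Spi1 by 0.32 and Mpo by 0.45, and 2 lower, Lyz2 by 1.12 and Ms4a3 by 1.83 on the log2 scale, and Mpo was higher in 2 of 4 libraries. Without the 3-day library Mpo stood at 0.052, and Ms4a3 was not called without the uninduced (-1.42) or 6-day library (-1.51). Of 23 stem cell genes, 4 were higher, Gata2 by 0.68 among them, and Angpt1 was lower by 0.49. Gata2 lost its call without the uninduced (0.68) or 3-day library (0.64), and Angpt1 without the control library (-0.36). Kit, Cd34 and Ly6a were not called. Of 9 MHC class II genes, 4 were lower, with H2-Aa at 38.5, 23.5, 26.0 and 15.6 CPM against 63.9, 37.2, 37.2 and 51.6 CPM.

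Genes of mature cells were nearly missing from the Hist1h2bc-high cells. Of 11 mature neutrophil and monocyte genes tested, 10 were lower, and their summed level was 121, 107, 49.9 and 32.9 CPM in uninduced, 3-day, 6-day and control Hist1h2bc-high cells, against 3761, 4468, 3139 and 1039 CPM in the remaining cells. S100a8, a calcium-binding protein of neutrophils, was lower by 5.26 on the log2 scale. With the 84 cells outside the sorted population left out, none of the 5 genes of the list still tested was called, and S100a8 stood at 0.23 (adjusted p = 0.423). Leaving those cells out left 705 genes higher and 780 lower. Erythroid genes were 1 higher and 5 lower of 7, with a median of -2.24, and 2 higher and 1 lower with a median of 0.31 once those cells were left out. With those cells included, basophil, eosinophil and mast cell genes had 1 higher of 3, stroma and endothelium genes 2 higher of 4 (Kdr and Pecam1), megakaryocyte genes 1 higher of 5, dendritic cell genes 3 higher and 2 lower of 11, and NK and innate lymphoid genes 1 lower of 5. Over all genes tested, 6.77% were higher and 7.63% lower. Kdr lost its call without the uninduced library (1.47) and Pecam1 without the 6-day (0.23) or control library (0.30).

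Immediate early genes, which respond within minutes to stimuli and to the handling of cells, were slightly higher. Of 26 dissociation and immediate early genes, 13 were higher and 1 (Hsp90aa1) was lower, with a median log2 fold change of 0.20. Hsp90aa1 was not called without the uninduced library (-0.14). Klf2, a transcription factor of resting lymphocytes, stood at 834, 735, 266 and 266 CPM in uninduced, 3-day, 6-day and control Hist1h2bc-high cells, against 549, 540, 182 and 168 CPM in the remaining cells (log2 0.59 ± 0.0514, adjusted p = 1.50e-11). Of 16 NF-kB response genes, 4 were higher, led by Tnf at 74.0, 60.2, 90.4 and 40.7 CPM against 42.2, 30.2, 48.9 and 30.6 CPM. Within the highest G2 and M quintile, 13 of 23 immediate early genes and 5 of 14 NF-kB genes were higher, with Zfp36 at 0.65, Klf2 and Btg2 at 0.61 and Tnf at 1.06 on the log2 scale. Among the least cycling cells 1 of 23 and 0 of 14 were higher, with a median of -0.038 for the immediate early genes. Among the other lists, 2 of 14 p53 target genes, 19 of 101 genes whose names begin as ribosomal protein genes do, 14 of 88 nuclear oxidative phosphorylation genes and 1 of 13 mitochondrially encoded genes were higher, against 6.77% of all genes. Of the oxidative phosphorylation genes 7 were lower, with a median of 0.02. The ribosomal changes were at most 0.26, and the 1 lower member of that list, Rps6ka4, encodes a kinase and was not called in any set of 3 libraries (-1.24 to -0.86). Of 10 BCL2 family genes, Bbc3 was higher and Bcl2 lower, with Bbc3 not called without the 3-day (0.47) or 6-day library (0.40). Xist, the RNA of the inactive X chromosome, was lower by 0.64 in all 4 libraries and by 0.77 against cells of the same cycle place, and Ddx3y and the other Y-linked genes of the list were not called.

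Between groups, Hist1h2bc-high cells were compared by the CPM of their summed UMIs, which number 1324185 in the uninduced, 681250 in the 3-day, 962877 in the 6-day and 1154165 in the control library. No test is possible with 1 library per group, and a gene was counted when it differed by at least 1.5-fold on the CPM + 1 scale at 20 CPM or more in either library. In uninduced against control Hist1h2bc-high cells, 275 of 5168 genes were higher (5.32%) and 309 lower (5.98%), and for 172 and 192 of them the counting interval left out a ratio of 1. At 3 days against uninduced cells, 327 of 5180 genes were higher (6.31%) and 402 lower (7.76%), and the interval left out 1 for 160 and 172. At 6 days against uninduced cells, 228 of 5120 genes were higher (4.45%) and 331 lower (6.46%), with 118 and 168 beyond counting error. Both induced comparisons share the uninduced library.

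Among the marker genes, Hist1h1c was lower in Hist1h2bc-high cells of both induced libraries than in those of the uninduced library, with counting intervals that leave out 1. Hist1h1c was 1.13 times as high in uninduced as in control Hist1h2bc-high cells (0.942 to 1.36), 0.728 times as high at 3 days as in uninduced (0.575 to 0.916) and 0.770 times as high at 6 days as in uninduced (0.628 to 0.941), while the same ratios in the remaining cells were 1.07, 1.11 and 0.965. H1f0 was 0.984, 0.820 and 0.812 times as high, and all 3 intervals include 1. Notch1 was 1.02, 0.75 and 1.01 times as high, also with intervals that include 1.

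Hes1 and Rbpj differed between groups in Hist1h2bc-high and in remaining cells. Hes1 was 0.201 times as high in uninduced as in control Hist1h2bc-high cells (0.142 to 0.279), where the remaining cells gave 0.198. It was 2.07 times as high at 3 days as in uninduced cells (1.35 to 3.19, remaining cells 2.46) and 5.16 times as high at 6 days (3.70 to 7.34, remaining cells 7.48). Rbpj was 142 times as high at 3 days (79.1 to 286) and 138 times as high at 6 days (76.9 to 278) as in uninduced Hist1h2bc-high cells, against 40.5 and 39.1 times in the remaining cells. Cd28, a costimulatory receptor of T cells, was 7.41 times as high in uninduced as in control Hist1h2bc-high cells (2.64 to 28.7), from 34 against 4 UMIs, and 2.16 times in the remaining cells.

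Several of the highest and lowest ratios rest on 1 cell or a few UMIs. Ccl5, a chemokine, had 141 UMIs in uninduced against 1 in control Hist1h2bc-high cells (ratio 123, 21.7 to 4888), and 114 of the 141 lay in 1 cell. Elane, neutrophil elastase, was 33.7 times as high at 3 days as in uninduced cells, and 102 of its 104 UMIs lay in 1 cell. Vpreb3, a B cell precursor gene, had 25 UMIs at 6 days, all in 1 cell, against 1 in uninduced cells. Dnajc11, a mitochondrial protein gene, was 0.197 times as high in uninduced as in control cells, with 52 of its 84 control UMIs in 1 cell. Ratios spread over more cells were those of Mxd3, a repressor of the Myc network, with 32 UMIs in 23 uninduced cells against 1 UMI in control cells (ratio 27.9, 4.66 to 1136; remaining cells 1.06), and of Gt(ROSA)26Sor, a noncoding RNA, at 0.279 in uninduced against control cells (0.148 to 0.498; remaining cells 0.607). Lrrc8a, a volume-regulated channel subunit, was 0.130 times as high at 3 days as in uninduced cells (2 against 30 UMIs, 0.0150 to 0.511).

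Stress genes differed between libraries in all cells. Hspa1a, a heat shock protein, stood at 71.7, 531, 37.4 and 3.47 CPM in uninduced, 3-day, 6-day and control Hist1h2bc-high cells. At 3 days it was 7.41 times as high as in uninduced Hist1h2bc-high cells (remaining cells 7.97), and Hspa1b was 6.32 times as high (remaining cells 6.72). Klf6 and Klf2 were 0.312 and 0.319 times as high at 6 days as in uninduced Hist1h2bc-high cells, against 0.337 and 0.331 in the remaining cells. In uninduced against control cells Hspa1a was 20.7 times as high in Hist1h2bc-high cells (7.82 to 77.5, from 95 against 4 UMIs) and 4.94 times as high in the remaining cells (4.30 to 5.69). The difference between both sets of cells was not tested.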

How the data were processed

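UMI counts were read from the deposited matrices (27998 genes, 737280 barcodes per library), and the cells were those in the authors' deposited log2 tables, whose values gave back the counts to within 1e-06 in 500 genes checked per library. The submitters' processing notes name Seurat and the mm10 build but no step for either, and which aligner and counter made the counts is not given in the sources used here. Kept cells held 20952799 (uninduced), 10647894 (3-day), 17455692 (6-day) and 23504158 (control) UMIs. The members, gene lists and tests were chosen with earlier results of these data known. No doublet caller was run. Genes were counted by identifier, and 121 share a symbol with another.

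UMI counts were summed over Hist1h2bc-high and over remaining cells of each library and tested with edgeR 4.0.16 (R 4.3.3; filterByExpr, TMM, quasi-likelihood, library as block, 3 residual degrees of freedom, adjusted p under 0.05), which was tested on simulated data. The libraries are 4 different conditions. The p-values and SE rest on a spread over these libraries that the fit estimates by sharing information across genes. For a gene whose ratio differs between libraries, such as Rbpj or H2afx, they can understate the spread of its own 4 ratios. Within libraries, intervals at 95% are exact. Cells outside the sorted population held at least 1% of their UMIs in mature blood cell genes. Thinning to 5000 UMIs used 1 random draw per cell. Genes named were the markers, Hes1 and Rbpj, the 12 highest and 12 lowest called genes at 20 CPM alike in all 4 libraries, up to 4 called genes each way per list, histone genes at 20 CPM, and the 4 highest and lowest between libraries. Ddx3y, Zfp36, Btg2, Isg15, Kit, Cd34, Ly6a, Hist1h3e, Hist1h2bg, Hist2h2be and Hist1h4h were added after their values were seen. Alternatives were DESeq2 1.42.0, other scaling, filters, gates, depth and cycle matching, and leaving out each library.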

Additional observations from a re-analysis of the deposited data

Results flagged for a closer look

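Among the genes and list sums described, 5 lay in opposite directions in Hist1h2bc-high cells of different libraries, each with counting intervals that leave out a ratio of 1. The difference between libraries was not tested in any of them, since each group has 1 library. H2afz, the H2A.Z histone variant, was 1.07 times as high in uninduced, 1.22 times in 3-day, 1.07 times in 6-day and 0.910 times in control Hist1h2bc-high cells as in the remaining cells of the library. H2afx, the H2A.X variant, had ratios of 1.53, 1.28, 1.28 and 0.704 in the same order. The summed G2 and M list had ratios of 1.5, 1.42, 1.30 and 0.938. Cxcl2, a neutrophil-attracting chemokine, had ratios of 1.80, 1.75, 0.775 and 1.53, so here the 6-day library stands apart. Hspa1a had ratios of 1.29, 1.20, 2.10 and 0.309, and the control value rests on 4 UMIs in Hist1h2bc-high cells.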

How the results depend on the processing

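The test is paired within libraries, with the library as the block, and with no replicate block 330 genes were higher and 528 lower. Groups could not be paired with each other, since each has 1 library. DESeq2 called 420 higher and 418 lower, remaining cells matched in total UMIs gave 291 and 392, and the gate set after thinning gave 370 and 477. Leaving out 1 library gave 394 to 586 higher (405 without the uninduced, 394 without the 6-day library) and 491 to 653 lower (491 without the uninduced library). Matching in cycle place gave 44 and 48, the least cycling cells 91 and 94, and the highest G2 and M quintile 39 and 40, all from fewer cells. Scaling by DESeq2's size factors (768 and 778), no filter (490 and 937), a gate of 2 UMIs (827 and 908) or 4 (538 and 664) and leaving out mature cells (705 and 780) stayed within 1.5 times. Thinning moved the ratios of shares to 0.865 (uninduced over control), 1.13 (6 days over uninduced), 1.37 (6 over 3 days) and 0.713 (3 days over control).

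Between libraries, within Hist1h2bc-high cells, counts of genes higher and lower followed the minimum level and the number of cells. For uninduced over control, 3 days over uninduced and 6 days over uninduced they were 533 and 687, 653 and 820, and 590 and 640 at 10 CPM; 79 and 75, 79 and 90, and 45 and 71 at 50 CPM; and 558 and 668, 682 and 743, and 495 and 639 in thinned cells. A gate of 2 UMIs gave 113 and 200, 215 lower at 3 days, and 144 and 181 at 6 days, and a gate of 4 gave 422 higher, 558 and 626, and 401 and 502.

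Of the named genes, Hist1h1c, H1f0, Hes1, Hist3h2a, Ccnb2 and Dntt kept their direction and call under the 11 alternatives run for single genes, while Hes1 was not called in the least cycling cells, nor Hes1, H1f0 and Dntt in the highest G2 and M quintile. Reversed log2 values were, without mature cells, S100a8 0.23, S100a9 0.15, Hbb-bs 0.20, Camp 0.32, Ngp 0.058, Hba-a1 0.68 and Hba-a2 1.35; matched in cycle place, H2afz -0.012, Cd9 -0.037, Cox6b2 -0.077, H2afx -0.17, H2afv -0.0047, Hsp90aa1 0.11, Rtp4 -0.088, Cd74 0.029 and Ifit1 -1.02; at a gate of 2, Aurkb 0.25, Hist1h1b 0.072, Hist1h2ap 0.21 and Hist1h1e 0.25; at a gate of 4, Ptcra -1.93; matched in total UMIs, Hist1h2ap 0.15; and, leaving out 1 library each, Hist1h2ap (-0.28 to 0.074), Hist1h1e (-0.24 to 0.14) and Hist1h2ae (-0.048 to 0.34). The cause was not tested. The 3-day library has the fewest Hist1h2bc-high cells, 81, which widens its intervals.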
